A study of Mus musculus with 35 samples.

Results

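The nuclear oxidative phosphorylation genes are the chromosomal genes for subunits of the respiratory chain and the ATP synthase. They were chosen by a rule on gene names and a minimum level: every gene whose symbol begins with Ndufa, Ndufb, Ndufc, Ndufs, Ndufv, Uqcr, Cox4, Cox5, Cox6, Cox7, Cox8 or Atp5, together with Sdha, Sdhb, Sdhc and Sdhd, apart from assembly factors of the Ndufaf family, pseudogenes and genes under 1 TPM (a level scaled to transcript length and library size) in more than 32 of the 35 libraries. Of 54752 genes in the tables, 90 had such a name and 84 of these passed the level rule. The 6 left out were Cox6a2, Cox6c2, Cox8c, Ndufa11b, Ndufs6b and an entry listed by its identifier, ENSMUSG00000116933. The 84 members comprise 37 genes of complex I, 4 of complex II, 8 of complex III, 18 of complex IV (Ndufa4 and Ndufa4l2 were placed there) and 17 of complex V.

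Oxidative phosphorylation takes place in the inner mitochondrial membrane. Complex I (NADH dehydrogenase) and complex II (succinate dehydrogenase) feed electrons to coenzyme Q, complex III (cytochrome bc1) passes them to cytochrome c, and complex IV (cytochrome c oxidase) hands them to oxygen. Complexes I, III and IV pump protons, and complex V (ATP synthase) uses the proton gradient to make ATP. Most subunits are encoded in the nucleus and a small set in the mitochondrial genome, so each complex other than II is built from both. Cells with much respiration, such as muscle, carry high levels of these mRNAs, and some subunits of complex IV have alternative forms used mainly in muscle, lung or testis. Pluripotent stem cells are known for relying more on glycolysis than the fibroblasts they can be made from.

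The libraries are bulk RNA-seq of mouse embryonic fibroblasts (MEFs), primary cells grown from E13.5 embryos and used at passage 2. The embryos carried an Oct4-GFP reporter and came from CBA/CaJ × C57BL/6J males crossed with 129 females. All cultures were infected with retroviruses carrying reprogramming factors and were then kept in the medium named iCD3 with a Rock inhibitor until day 7. JEGS is the culture with all 4 factors, the AP-1 family protein Jdp2, the zinc finger protein Glis1, the orphan nuclear receptor Esrrb and the zinc finger protein Sall4, with 1 library on each of days 2, 4 and 6. The leave-out arms received 3 factors each: Jdp2, Glis1 and Sall4 (the arm without Esrrb), Jdp2, Esrrb and Sall4 (without Glis1), Glis1, Esrrb and Sall4 (without Jdp2) and Jdp2, Glis1 and Esrrb (without Sall4), with 8 libraries each, 1 on every day from 0 to 7. Day 0 was thus taken after infection and is no uninfected control, and no library of uninfected cells was analysed here.

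The arms were read from the sample titles. The treatment label names all 4 factors for every sample, while the levels of the omitted factors follow the titles. Esrrb stood at 6.97 to 57.7 CPM (counts scaled to the library total) in the arm without Esrrb, against 541 to 8383 CPM in the other leave-out arms, and the omitted factor stood at no more than 4.51 CPM without Glis1, 45.0 CPM without Jdp2 and 11.2 CPM without Sall4. Library totals ran from 1266379 to 3608456 counts with a median of 1973102. The arm without Esrrb was sequenced less deeply (1377656 to 1651712 counts) than the arm without Sall4 (1939226 to 3608456 counts). The JEGS libraries held 1266379 to 1682386 counts. Each arm is read here as 1 culture series, so p-values measure the spread between libraries taken on different days, and a difference between culture series or library runs cannot be told apart from the effect of the omitted factor. Fibroblast markers identify the starting cells: the summed level of 10 fibroblast genes reached 6488, 8059, 9208 and 12402 TPM on day 0 in the arms without Esrrb, Glis1, Jdp2 and Sall4, the highest library of each arm. In bulk RNA, fewer cells of a type and less RNA per cell cannot be told apart.

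The promoters of 6 members are printed first, because the omitted factors and their relatives bind DNA. They are the marker genes Cox5a and Ndufb7, Cox6a1 and Cox7a1 of complex IV, and the 2 matched members that hold an estrogen-related receptor element, a choice made after the values were seen. RefSeq windows of 300 bases on GRCm38.p6, running from 250 bases before the gene's start to 50 after it, were matched to 67 of the 84 members. Cox5a encodes a nuclear subunit of complex IV and Cox7a1 its muscle-type subunit 7a, Ndufb7 an accessory subunit of the membrane arm of complex I, and Cox6a1 the widely expressed subunit 6a of complex IV. Atp5g3 encodes the ATP synthase c subunit, which forms the rotating ring, and Sdhd a membrane anchor of complex II. Capitals mark the matches of 4 short motifs on either strand, each credited as background to the factor that binds it: TCAAGGTCA (estrogen-related receptors, the family of Esrrb), GCATGCGC (the core of an NRF1 site), CCGGAAG (the core of an ETS or GABP site) and TGACTCA (the AP-1 site, which Jdp2 can bind).
Cox5a promoter, chr9:57520982-57521281, plus strand: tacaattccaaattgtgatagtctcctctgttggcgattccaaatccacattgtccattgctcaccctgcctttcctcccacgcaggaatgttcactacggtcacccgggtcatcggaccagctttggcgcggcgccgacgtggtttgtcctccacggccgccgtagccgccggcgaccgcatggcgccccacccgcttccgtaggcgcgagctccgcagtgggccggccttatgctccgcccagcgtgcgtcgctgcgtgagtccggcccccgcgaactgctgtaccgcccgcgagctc
Cox7a1 promoter, chr7:30183921-30184220, plus strand: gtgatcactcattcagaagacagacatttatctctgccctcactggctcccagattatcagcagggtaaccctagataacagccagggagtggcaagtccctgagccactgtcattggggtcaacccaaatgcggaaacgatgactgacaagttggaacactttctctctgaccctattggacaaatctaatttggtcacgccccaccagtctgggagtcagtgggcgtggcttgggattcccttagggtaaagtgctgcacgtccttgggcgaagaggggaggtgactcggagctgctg
Ndufb7 promoter, chr8:83566508-83566807, plus strand: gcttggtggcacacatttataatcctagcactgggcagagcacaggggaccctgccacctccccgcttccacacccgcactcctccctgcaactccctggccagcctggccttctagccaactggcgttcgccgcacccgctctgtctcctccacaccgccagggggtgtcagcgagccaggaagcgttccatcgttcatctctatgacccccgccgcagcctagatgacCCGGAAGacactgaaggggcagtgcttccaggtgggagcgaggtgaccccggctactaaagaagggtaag
Cox6a1 promoter, chr5:115348909-115349208, minus strand: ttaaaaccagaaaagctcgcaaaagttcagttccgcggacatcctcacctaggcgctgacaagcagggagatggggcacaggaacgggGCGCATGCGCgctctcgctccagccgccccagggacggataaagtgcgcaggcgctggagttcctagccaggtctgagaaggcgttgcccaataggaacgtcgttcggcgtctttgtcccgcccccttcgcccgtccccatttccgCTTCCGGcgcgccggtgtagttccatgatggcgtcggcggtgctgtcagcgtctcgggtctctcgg
Atp5g3 promoter, chr2:73911277-73911576, minus strand: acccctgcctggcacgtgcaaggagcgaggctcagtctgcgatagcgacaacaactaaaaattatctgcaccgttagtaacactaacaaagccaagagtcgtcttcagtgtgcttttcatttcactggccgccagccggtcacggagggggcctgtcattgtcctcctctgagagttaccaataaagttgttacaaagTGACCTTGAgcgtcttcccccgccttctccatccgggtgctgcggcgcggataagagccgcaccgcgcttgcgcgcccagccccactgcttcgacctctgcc
Sdhd promoter, chr9:50603800-50604099, minus strand: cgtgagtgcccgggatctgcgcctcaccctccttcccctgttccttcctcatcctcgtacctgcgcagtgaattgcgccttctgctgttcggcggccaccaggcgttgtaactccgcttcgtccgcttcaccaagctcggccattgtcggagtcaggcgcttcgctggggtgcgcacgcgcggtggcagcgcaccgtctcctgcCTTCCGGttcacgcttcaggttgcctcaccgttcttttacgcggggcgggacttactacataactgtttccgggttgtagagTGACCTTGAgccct
Neither Cox5a nor Cox7a1 held any of the motifs in its window. Ndufb7 held the ETS core, Cox6a1 both the NRF1 and the ETS core, Atp5g3 the estrogen-related receptor element and Sdhd that element and the ETS core, with some matches read on the reverse strand. Over all 67 matched members, the estrogen-related receptor element was found in 2 (2.99%, Atp5g3 and Sdhd), against 0.466% of all 27025 genes with a window. The NRF1 core was found in 10 members (14.9%, against 3.05% of all genes with a window), the ETS core in 16 (23.9%, against 9.93%) and the AP-1 site in 6 (8.96%, against 5.95%). No 2 different motifs overlapped. A match describes letters in a window and shows neither binding nor control.

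The members were among the more abundant mRNAs of these cells. By median TPM over the 35 libraries, which is scaled to transcript length, 4 members exceeded 1000 TPM, 68 lay between 100 and 1000 TPM, 7 between 10 and 100 TPM and 5 under 10 TPM. Atp5b, the catalytic beta subunit of ATP synthase, was the most abundant with a median of 2022 TPM, followed by Cox6a1 with 1408 TPM, Cox4i1 with 1110 TPM and Cox8a with 1013 TPM. The low end held alternative forms of complex IV subunits. Cox7b2 was too low to be tested, so that 83 of the 84 members entered the tests.

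Summed over all 84 members, the levels of the leave-out arms lay close together on day 0 and apart on every later day. On day 0 the sum ran between 21247 TPM without Sall4 and 22038 TPM without Glis1, although Esrrb was already at 1628 to 5001 CPM in the 3 arms that received it. On each of days 1 to 7 the arm without Esrrb had the lowest sum and the arm without Sall4 the highest. The sum in the arm without Esrrb was 18649 TPM on day 7, against 22974 TPM on day 1. In the arm without Sall4 it was 32548 TPM on day 1, reached 40457 TPM on day 6 and was 35244 TPM on day 7. As a share of all TPM this is 1.87% to 2.30% without Esrrb and 2.13% to 4.05% without Sall4.

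Set against the mean of the other 3 arms on the same day, the sum without Esrrb had a mean log2 ratio of -0.49 ± 0.21 (SD over 8 days), with -0.02 on day 0 and values between -0.67 and -0.35 on days 1 to 7. Without Sall4 the mean log2 ratio was 0.52 ± 0.27, with -0.04 on day 0 and 0.32 to 0.79 afterwards. The arms without Glis1 and without Jdp2 lay between them, at mean log2 ratios of 0.12 ± 0.08 and -0.16 ± 0.11. Each arm is part of the comparison group of the other 3, so these 4 ratios are not independent of each other. Complex IV stood furthest apart of the 5 complexes, at -0.66 without Esrrb and 0.67 without Sall4.

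**Figure D1:**
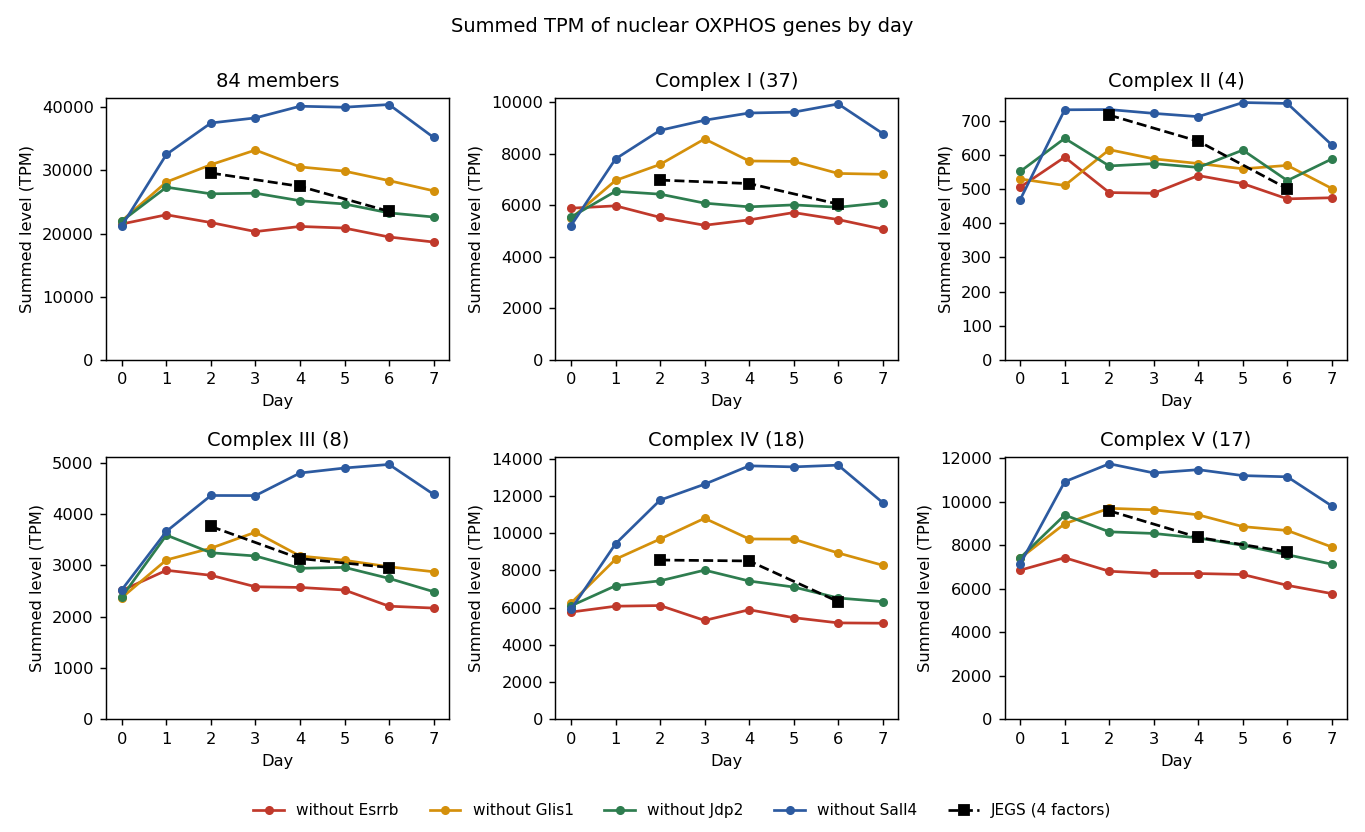
Summed TPM of the nuclear oxidative phosphorylation genes (y axis) by day (x axis), for all 84 members and for each complex. Day 0 was taken after infection. Each point is 1 library, and dashed black squares are the JEGS libraries. All-member sums start between 21247 and 22038 TPM on day 0; from day 1 on the arm without Sall4 lies highest and the arm without Esrrb lowest of the leave-out arms.

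Omitting Esrrb went with lower mRNA for most subunits in all 5 complexes. In the comparison of the 8 libraries without Esrrb with the mean of the other 3 arms, with day as a term, 70 of 83 tested members were lower and 2 higher (edgeR's quasi-likelihood test, Benjamini-Hochberg adjusted p under 0.05 over all genes). Among all 18135 genes tested, 21.9% were lower and 20.9% higher. The median log2 fold change was -0.52 over the members and -0.01 over all genes, and 78 members had a negative value.

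The member furthest down among those at a high level was Cox5a. It had a lowest, median and highest level of 142, 279.9 and 429.8 TPM without Esrrb, against 304, 568 and 695 TPM without Jdp2, 531, 923 and 1031 TPM without Sall4, and 608, 921 and 1148 TPM without Glis1. The range without Esrrb overlapped that of the arm without Jdp2 and lay below both other arms. The log2 fold change was -1.53 ± 0.14 (SE), with an adjusted p of 2.21e-09 by edgeR's quasi-likelihood test. On day 0 it already stood at 365 TPM without Esrrb, against 531 to 608 TPM in the other arms.

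Cox4i1, the ubiquitous form of the largest nuclear subunit of complex IV, was the single member whose 8 libraries without Esrrb lay below all 24 libraries of the other leave-out arms. Its lowest, median and highest levels were 645, 711 and 840 TPM without Esrrb, while the lowest of the 24 other libraries stood at 901 TPM. The log2 fold change was -1.03 ± 0.12 (adjusted p 9.38e-08, edgeR's quasi-likelihood test). Among all genes tested, 0.265% showed such a separation. The weaker criterion of being the lowest of the 4 arms on every one of the 8 days was met by 7 members, Cox5a, Cox4i1, Cox6a1, Atp5b, Atp5f1, Atp5g1 and Atp5g3, and by 1.54% of all genes.

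In complex I, 31 of 37 subunits were lower without Esrrb and 0 higher. They included 6 of the 7 core subunits, among which are those that carry the flavin and iron-sulfur centres, and 25 of the 30 accessory ones. Ndufb4 and Ndufb9, both accessory subunits of the membrane arm, fell by 1.005 ± 0.18 and 0.97 ± 0.16 on the log2 scale. Ndufb9 had a lowest, median and highest level of 136, 156 and 210.5 TPM without Esrrb, against 165, 203 and 239 TPM without Jdp2, 163, 341 and 435 TPM without Glis1, and 131, 437 and 494 TPM without Sall4. The ranges overlapped, with the day 0 libraries lowest in the arms without Glis1 and without Sall4. Ndufb7 stood at 109, 187 and 311 TPM without Esrrb, against 166, 209 and 243 TPM without Jdp2, 197, 242 and 307 TPM without Glis1, and 229.9, 412 and 463 TPM without Sall4. Its fold change was smaller, -0.65 ± 0.15 on the log2 scale (adjusted p 0.000753, edgeR's quasi-likelihood test), all 4 ranges overlapped, and on days 0 to 3 alone it did not pass (adjusted p 0.331).

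Complexes II and III also held lower members without Esrrb. In complex II, Sdha, the flavoprotein that oxidises succinate, fell by 0.49 ± 0.08, Sdhc, a membrane anchor, fell by 0.61 ± 0.12, and Sdhb also passed. The other anchor, Sdhd, had a log2 fold change of -0.05 ± 0.07 and did not pass (adjusted p 0.645, edgeR's quasi-likelihood test). All 8 members of complex III were lower, with Uqcrq and Uqcrb, 2 small subunits near the quinone-binding site, down by 0.77 ± 0.16 and 0.61 ± 0.14 in fitted log2 terms.

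In complex IV, 13 of the 17 tested members were lower without Esrrb. Cox6a1 had a lowest, median and highest level of 825, 951 and 1189 TPM without Esrrb, against 1095, 1309 and 1547 TPM without Jdp2, 1318, 2140 and 2389 TPM without Glis1, and 1204, 3248 and 3890 TPM without Sall4. It fell by 1.10 ± 0.16 on the log2 scale (adjusted p 2.23e-06, edgeR's quasi-likelihood test). The fitted change of Cox7a1 was larger, -2.03 ± 0.45 (adjusted p 0.000685), but it rests on 9 counts over the 8 libraries without Esrrb. The 2 higher members were low-level alternative forms, Cox4i2 and Cox8b, described with the other forms below.

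In complex V, 15 of 17 members were lower without Esrrb, including all 5 members of the catalytic head and 2 of the 3 c ring genes. Atp5b stood at 1187, 1501 and 1805 TPM (lowest, median and highest) without Esrrb, against 1584, 1965 and 2481 TPM without Jdp2, 2115, 2280.0 and 2711 TPM without Glis1, and 1971, 2789 and 3166 TPM without Sall4. The log2 fold change was -0.77 ± 0.09 (adjusted p 3.4e-08). Atp5g1, 1 of the c subunit genes, fell by 0.96 ± 0.12 (adjusted p 2.37e-07, both edgeR's quasi-likelihood test). Atp5g2, a further c subunit gene, had a log2 fold change of 0.27 ± 0.42 and did not pass, nor did Atp5s, a coupling factor (-0.36 ± 0.28).

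Omitting Sall4 went with higher mRNA for as many subunits. Against the mean of the other 3 arms, 70 of 83 members were higher and 2 lower without Sall4, where 22.3% of all genes were higher and 19.5% lower. The median log2 fold change was 0.55 over the members and 0.00 over all genes, with 77 members positive. The counts per complex were 33 of 37 higher in complex I, 4 of 4 in complex II, 8 of 8 in complex III, 12 of 17 in complex IV (with 2 lower) and 13 of 17 in complex V. All 7 core subunits of complex I were among them, with 26 of the 30 accessory ones and 4 of the 5 members of the ATP synthase head.

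Ndufa11, an accessory subunit at the membrane arm of complex I, was the single member whose 8 libraries without Sall4 lay above all 24 libraries of the other leave-out arms, as did 0.27% of all genes. It had 408, 572 and 639 TPM without Sall4 (lowest, median and highest), while the highest of the 24 other libraries stood at 369 TPM. The log2 fold change was 1.04 ± 0.09 (adjusted p 4.12e-10, edgeR's quasi-likelihood test). Ndufb6, another membrane-arm accessory subunit, had the largest fitted rise, 1.53 ± 0.15 (adjusted p 4.96e-09). Its levels were 140.2, 242 and 321 TPM without Sall4, against 45.6, 63.2 and 124 TPM without Esrrb, 58.2, 92.7 and 126 TPM without Jdp2, and 74.0, 103 and 148 TPM without Glis1. The ranges of the arms without Sall4 and without Glis1 overlapped at their edges.

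Both of the genes that mark the set rose without Sall4. Cox5a had a log2 fold change of 0.87 ± 0.12 (adjusted p 1.79e-06) and Ndufb7 one of 0.95 ± 0.13 (adjusted p 1.62e-06), both by edgeR's quasi-likelihood test. The levels given above show that Cox5a stood as high without Glis1 (median 921 TPM) as without Sall4 (median 923 TPM), whereas the Ndufb7 median was 412 TPM without Sall4 and 242 TPM without Glis1. Further members that rose in each complex were Cox6a1 (1.19 ± 0.14), Cox4i1 (0.93 ± 0.11), Uqcr10 (0.81 ± 0.10), Uqcr11 (0.72 ± 0.14), Sdhb (0.63 ± 0.12), Sdha (0.48 ± 0.07), Atp5e (0.81 ± 0.13) and Atp5g1 (0.77 ± 0.11), all as log2 fold changes with their SE. The 10 members that were the highest of the 4 arms on all 8 days without Sall4 were Ndufa8, Ndufa11, Ndufb6, Uqcrc1, Uqcrfs1, Cox4i1, Cox7a2, Cox7c, Cox8a and Atp5d, against 1.73% of all genes.

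The rise without Sall4 was already present on day 1. On that day 41 of the 83 members were at least 1.5-fold above day 0 (on TPM + 1, 1 library each and hence no test) and 2 at least 1.5-fold below, with a median log2 step of 0.58. Over all genes, 19.3% stepped up by as much. Downward steps of that size were seen for 23.4% of all genes. The same upward step was seen for 12 members without Esrrb (median 0.07, with 32.2% of all genes), 17 without Jdp2 (median 0.33, with 23.7%) and 18 without Glis1 (median 0.29, with 17.5%). On days 0 to 3 alone, 28 members were higher without Sall4 and 29 lower without Esrrb, fewer than over all days, with 16 libraries in that fit. The share of all genes called in that fit is not given.

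**Figure D2:**
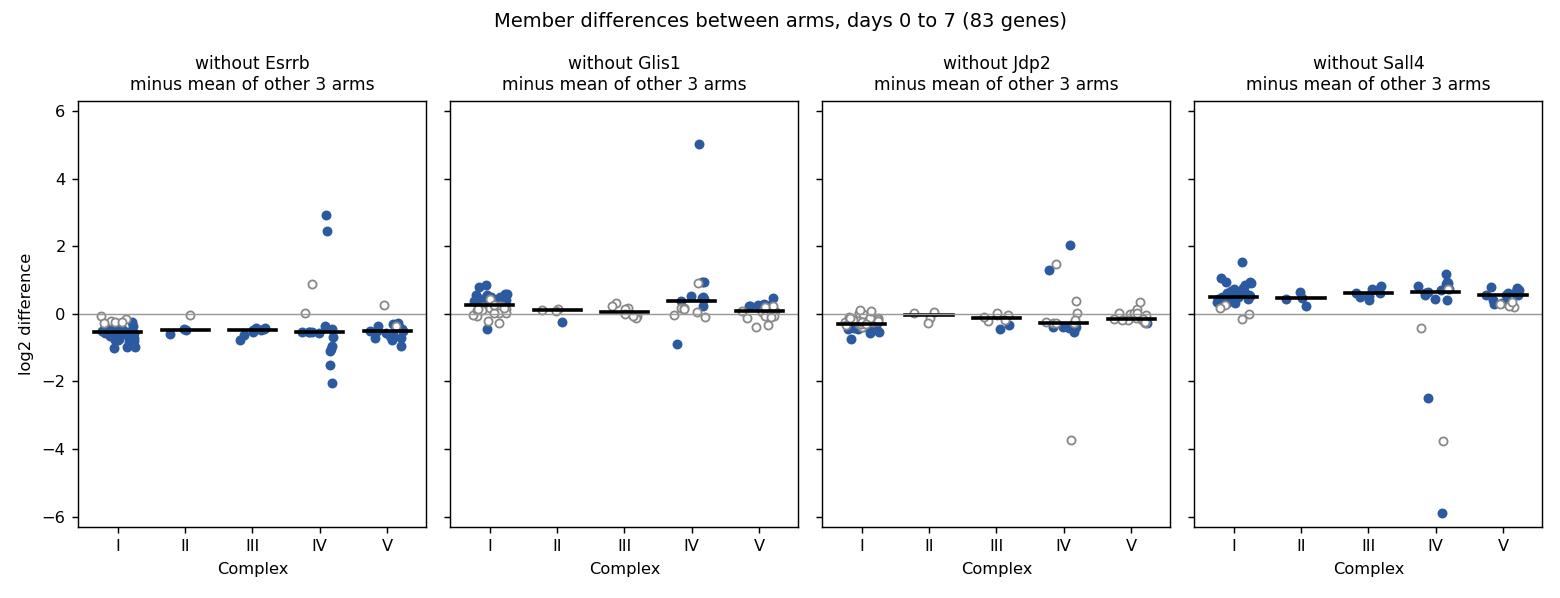
Log2 fold change (y axis) of each tested member in each leave-out arm against the mean of the other 3 arms, by complex (x axis); each point is 1 gene, filled blue points passed an adjusted p of 0.05, open grey points did not, and black bars are medians per complex. Complex I holds 31 lower members without Esrrb and 33 higher members without Sall4.

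Set against the mean of the other 3 arms, the arm without Glis1 had a higher level for part of the set. Here 32 of 83 members were higher and 3 lower without Glis1, while 20.0% of all genes were higher and 16.3% lower. The median log2 fold change was 0.19 over the members and 0.01 over all genes. The higher members were in complex I (17), complex IV (9) and complex V (6), with 0 in complexes II and III. Cox5a had a log2 fold change of 0.93 ± 0.12 (adjusted p 6.02e-07, edgeR's quasi-likelihood test), the largest among members with over 100 TPM. Ndufb7 had one of 0.13 ± 0.14 and did not pass (adjusted p 0.508). In the comparison of this arm with JEGS, given below, 10 members were lower in JEGS and 0 higher. There 10.0% of all genes were lower and 9.86% higher.

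Against the mean of the other 3 arms, the similar genes Ndufb4 and Ndufb4c rose together without Glis1, by 0.85 ± 0.15 and 0.80 ± 0.14. Since RSEM divides reads that match both, their separate values are uncertain. Ndufb4c stood at 250.2, 357 and 440.2 TPM without Glis1 (lowest, median and highest), against 139, 207 and 303 TPM without Esrrb, 137, 176 and 201 TPM without Jdp2, and 113, 305 and 426 TPM without Sall4. The 3 lower members were Ndufa2 (-0.44 ± 0.13), Sdhd (-0.25 ± 0.07) and Cox6b2 (-0.90 ± 0.25). Sdhd was the lowest of the 4 arms on all 8 days without Glis1, as was 1.11% of all genes, at 115, 135 and 154 TPM without Glis1 against medians of 169 to 172 TPM in the other arms. Thus the anchor that did not pass in the arm without Esrrb was lower in the arm without Glis1, where no other complex II member passed.

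Omitting Jdp2 went with a lower level for part of the set. In that arm 26 of 83 members were lower and 2 higher, while 9.13% of all genes were lower and 14.4% higher. The median log2 fold change was -0.23 over the members and 0.01 over all genes. The lower members were 17 of complex I, 2 of complex III, 6 of complex IV and 1 of complex V, the last being Atp5d (-0.28 ± 0.09), the delta subunit of the ATP synthase stalk. In the other complexes, Ndufb4c (-0.76 ± 0.16), Ndufb6 (-0.57 ± 0.17), Cox6a1 (-0.55 ± 0.15), Cox8a (-0.41 ± 0.10), Uqcr11 (-0.46 ± 0.15) and Uqcr10 (-0.33 ± 0.10) fell. Ndufb7 passed with -0.43 ± 0.15 (adjusted p 0.0297, edgeR's quasi-likelihood test), and Cox5a had -0.27 ± 0.13 and did not pass (adjusted p 0.144). In the comparison of this arm with JEGS, given below, 1 member was lower in JEGS and 0 higher. There 2.0% of all genes were lower and 0.819% higher.

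The count of lower members without Jdp2 differed between fits of early and late days. On days 4 to 7 alone the count was 38, and on days 0 to 3 it was 0, with 16 libraries in each fit. The share of all genes called in these fits is not given, so the counts do not show a change particular to the members. Leaving out day 0 raised the count to 42, and leaving out the day 0 library of the arm without Sall4 raised it to 40. The medians followed the same order: the median log2 fold change was -0.36 on days 4 to 7 and -0.17 on days 0 to 3. The other arms also had larger medians on days 4 to 7 than on days 0 to 3, at -0.59 and -0.38 without Esrrb, 0.23 and 0.16 without Glis1, and 0.71 and 0.38 without Sall4. The difference between the periods was not tested in these fits. In the slope fit without Jdp2, 0 members differed from the other arms, where 0.105% of all genes were above and 0.0221% below.

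**Figure D3:**
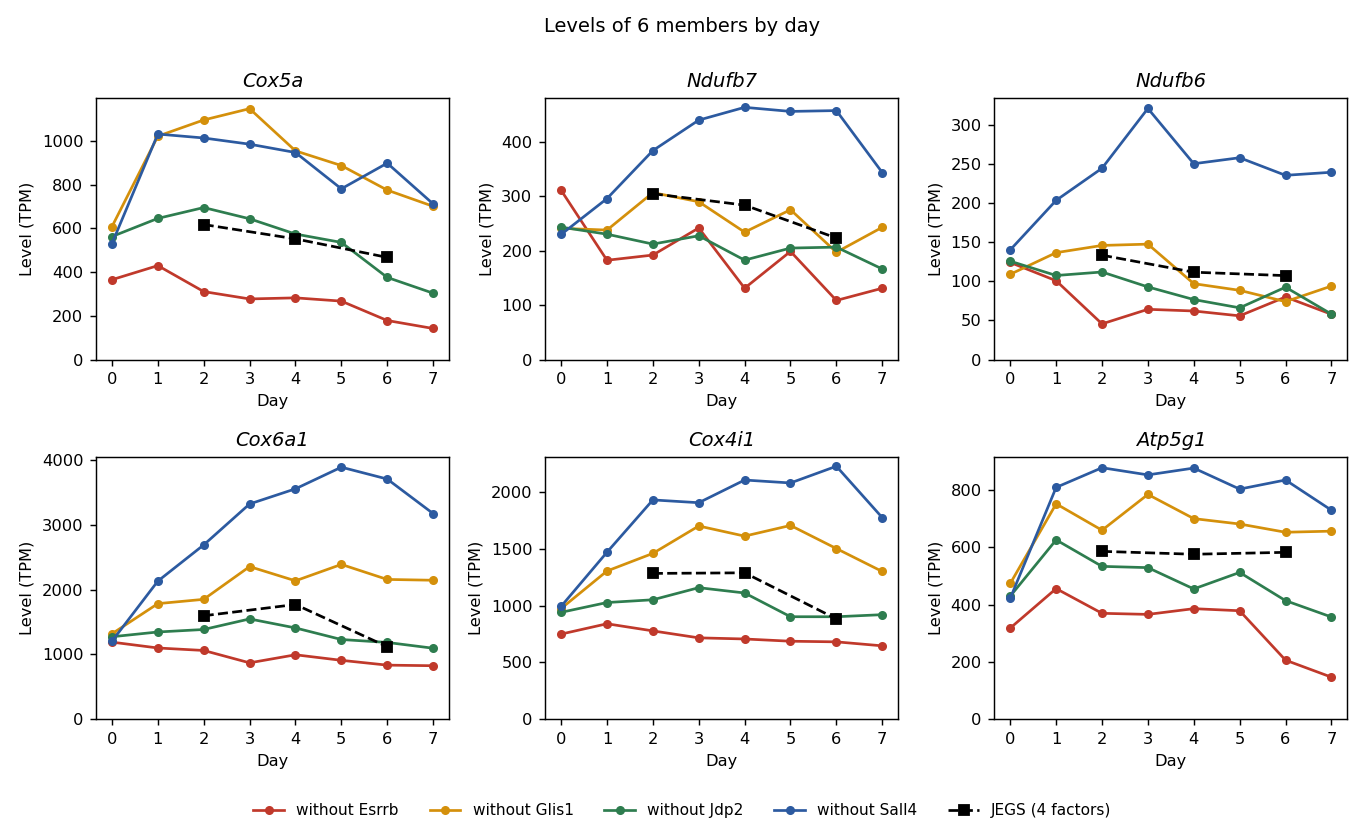
TPM (y axis) by day (x axis) for Cox5a, Ndufb7, Ndufb6, Cox6a1, Cox4i1 and Atp5g1; each point is 1 library, lines join the libraries of an arm, and dashed black squares are the JEGS libraries. Cox4i1 stays at 645 to 840 TPM without Esrrb, below every library of the other leave-out arms, and Cox6a1 reaches 3890 TPM without Sall4.

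The alternative forms of complex IV subunits, and of Ndufa4, showed patterns of their own by arm. These genes are used mainly in particular tissues, Cox7a1 and Cox8b in heart and skeletal muscle, Cox4i2 in lung and other sites of oxygen sensing, and Cox6b2 in testis. Cox6b2 was the most abundant of them. It had a lowest, median and highest level of 81.6, 358 and 428 TPM without Jdp2, against 84.3, 122 and 261 TPM without Esrrb, 33.0, 99.96 and 202 TPM without Sall4, and 39.3, 82.0 and 138 TPM without Glis1. The ranges overlapped, and the log2 fold change without Jdp2 was 1.29 ± 0.21 (adjusted p 5.04e-05, edgeR's quasi-likelihood test). As a share of Cox6b2 and its common counterpart Cox6b1 in TPM, it had a median of 38.1% without Jdp2, against 19.6% without Esrrb, 10.9% without Glis1 and 9.84% without Sall4.

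Cox4i2 came up late in single arms. Without Esrrb it stood at 79.3 TPM on day 6 and 55.4 TPM on day 7 with a median of 3.75 TPM, reaching 10.4% of the Cox4i1 and Cox4i2 pair. Summed over libraries it had 7.87 CPM without Esrrb and 1.48 CPM in the 24 other leave-out libraries (higher, adjusted p 0.00122). Without Jdp2 it reached 36.9 TPM on day 7, with 3.39 CPM over the arm and 2.34 CPM in the 24 others (higher, adjusted p 0.0278). Without Sall4 it had 0 counts in all 8 libraries, against 181 counts in the 24 other leave-out libraries, which makes it at least 26.8-fold lower (adjusted p 0.000353, each from edgeR's quasi-likelihood test, with the bound taken from a floor of 3 counts over the arm). The fitted folds of the other arms are not given, since the mean they are set against includes the arm at 0. The call without Esrrb was lost in both fits on log2 TPM and on days 0 to 3, and the call without Jdp2 was lost in 13 of 51 alternative settings.

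Cox8b was seen chiefly without Glis1, at a lowest, median and highest level of 0, 52.0 and 75.8 TPM and 85 counts, against 20 counts without Esrrb and 0 counts in the arms without Jdp2 and without Sall4. Summed over libraries it had 5.06 CPM without Glis1 and 0.384 CPM in the 24 others (higher, adjusted p 0.000146, edgeR's quasi-likelihood test). Without Esrrb it had 1.62 CPM, against 1.501 CPM in the 24 others, and passed as higher against the mean of the arms (adjusted p 0.0268), which includes 2 arms at 0, so no fitted fold is given. In the arm without Esrrb 4 of 8 libraries were at 0, and that call was lost in 10 of 51 alternative settings. In the 2 arms with 0 counts the level was at least 12.9-fold lower without Jdp2 and at least 15.5-fold lower without Sall4, and neither passed the test (adjusted p 1).

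Cox7a1 was lower without Esrrb, at 0, 4.59 and 12.9 TPM (lowest, median and highest), against 0, 17.97 and 37.7 TPM without Jdp2, 0, 21.0 and 35.3 TPM without Sall4, and 0, 21.7 and 41.1 TPM without Glis1. Without Glis1 it had a log2 fold change of 0.94 ± 0.35 (adjusted p 0.0368), a call lost in 21 of 51 alternative settings. Ndufa4l2, a homologue of Ndufa4 known to be induced by low oxygen, had 4 counts over the 8 libraries without Sall4, against 82 counts in the 24 others, and a log2 fold change of -2.50 ± 0.82 (adjusted p 0.0147, edgeR's quasi-likelihood test). Its highest library was day 7 without Jdp2, at 43.8 TPM.

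Markers of muscle and brown fat, tissues that use some of these forms, were measured beside them. The summed level of 10 skeletal and heart muscle genes had a lowest, median and highest value of 26.9, 46.6 and 312 TPM without Esrrb, 51.4, 56.7 and 192 TPM without Glis1, 51.9, 65.9 and 239 TPM without Jdp2, and 54.8, 75.8 and 163 TPM without Sall4. Of these genes Myod1 was at 0 in every library of the arms without Esrrb, Glis1 and Sall4. The 6 brown fat genes summed to 1.07 to 3.96 TPM without Esrrb, 2.03 to 16.3 TPM without Glis1, 2.13 to 12.3 TPM without Jdp2 and 2.81 to 8.67 TPM without Sall4, with Ucp1 at 0 in every library without Esrrb. The 5 endothelial genes had medians of 38.9, 19.2, 27.2 and 6.32 TPM in the arms without Esrrb, Glis1, Jdp2 and Sall4. In the same order of arms, the medians were 11.9, 22.1, 13.1 and 32.4 TPM for 7 macrophage genes, 239.8, 216, 671 and 129 TPM for 5 epithelial genes and 1592, 1562, 3548 and 3135 TPM for 10 fibroblast genes. Over the 4 arms the macrophage medians stand in the order of the member sums and the endothelial medians in the reverse order. The JEGS medians cover days 2, 4 and 6 alone and those of the leave-out arms days 0 to 7, so they are not on the same days. JEGS had a macrophage median of 7.75 TPM, below the median of every leave-out arm, and an endothelial median of 12.6 TPM. Its member sum lay above the arms without Esrrb and without Jdp2 on days 2, 4 and 6. The part of such cells in the levels of the members and of their alternative forms was not tested.

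**Figure D4:**
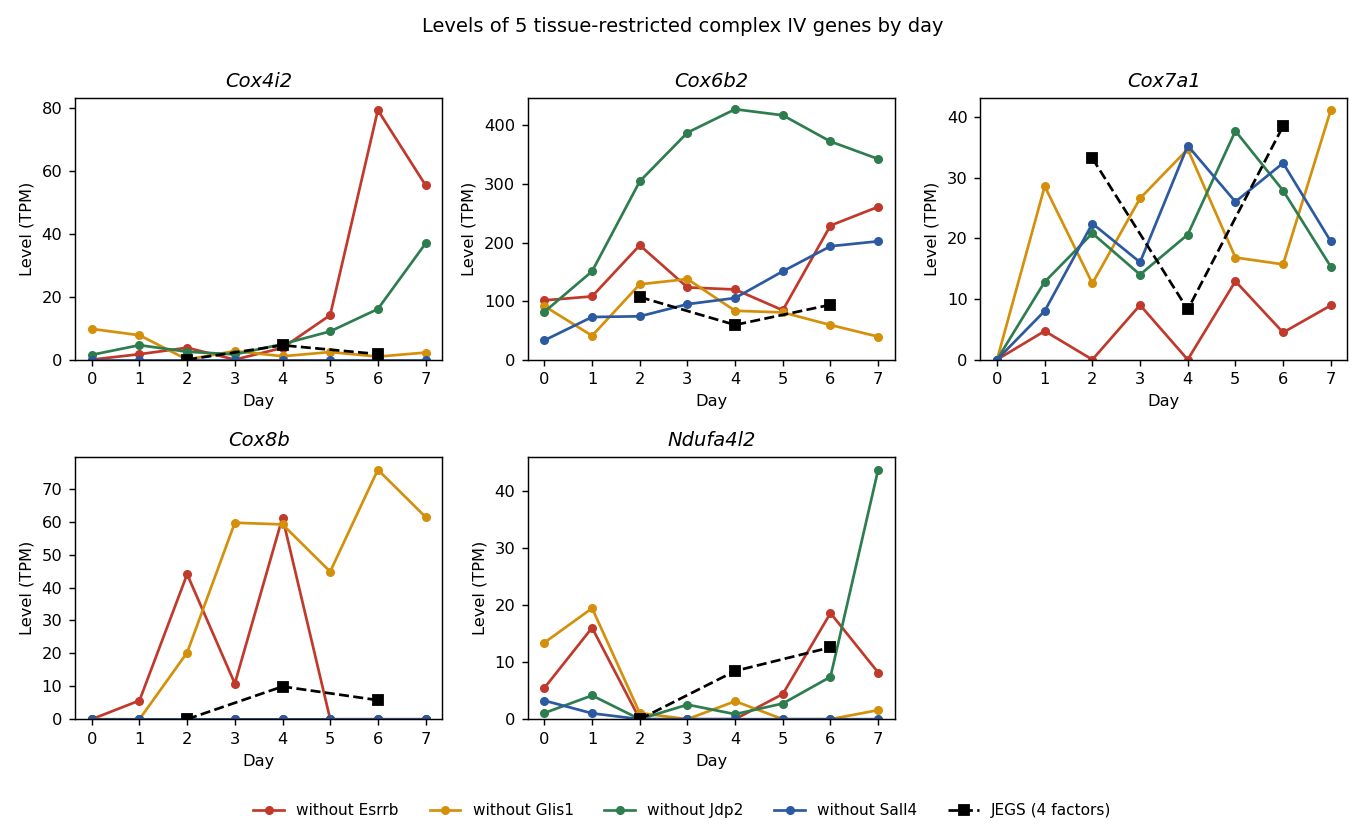
TPM (y axis) by day (x axis) for the alternative subunit forms Cox4i2, Cox6b2, Cox7a1, Cox8b and Ndufa4l2; each point is 1 library, lines join the libraries of an arm, and dashed black squares are the JEGS libraries. Cox4i2 reaches 79.3 TPM on day 6 without Esrrb and is 0 in all libraries without Sall4, while Cox6b2 has its highest median, 358 TPM, without Jdp2.

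The JEGS libraries carry another repeat number than the leave-out libraries, so a batch and the omitted factor cannot be told apart in comparisons with JEGS. The culture with all 4 factors lay within the spread of the leave-out arms. Its all-member sum was 29590.1 TPM on day 2, 27481 TPM on day 4 and 23515 TPM on day 6, on each day above the arms without Jdp2 and without Esrrb and below the arms without Glis1 and without Sall4. Against the mean of the 4 leave-out arms on those 3 days, 0 of 83 members were higher and 0 lower in JEGS by edgeR's quasi-likelihood test, where 3.21% of all 16603 genes were higher and 0.849% lower. At an unadjusted p under 0.05 the counts were 2 higher and 6 lower, and by DESeq2 they were 0 and 1. The median log2 fold change was -0.03. Cox5a had one of -0.12 ± 0.13 (adjusted p 0.664) and Ndufb7 one of 0.14 ± 0.15 (adjusted p 0.652).

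Against the arm without Esrrb, 18 members were higher in JEGS and 0 lower, where 4.04% of all genes were higher and 2.6% lower. Of these 18, 5 were in complex I, 2 in complex III, 7 in complex IV and 4 in complex V. At an unadjusted p under 0.05 the number lower was 2, and DESeq2 called 29 higher and 0 lower. Cox5a stood at 618, 552 and 467 TPM in JEGS on days 2, 4 and 6, above the highest library of the arm without Esrrb (429.8 TPM), and its log2 fold change was 1.23 ± 0.16 (adjusted p 0.000299, edgeR's quasi-likelihood test). Ndufb7 stood at 305, 284 and 223 TPM in JEGS on those days, with a log2 fold change of 0.95 ± 0.19 (adjusted p 0.00743).

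Other members higher in JEGS than without Esrrb were Ndufb9 (0.96 ± 0.19), Atp5g1 (0.87 ± 0.19), Cox6c (0.82 ± 0.16), Cox4i1 (0.78 ± 0.16), Uqcrq (0.71 ± 0.21), Atp5b (0.63 ± 0.13) and Uqcrc2 (0.62 ± 0.15), as log2 fold changes with their SE. Atp5g1 had 3 closely spaced values in JEGS, between 575 and 585 TPM, against a range of 147 to 456 TPM over the 8 libraries without Esrrb. Cox7a1 had the largest fitted change, 3.80 ± 1.07 (adjusted p 0.0433, edgeR's quasi-likelihood test), on 16 counts in JEGS, and was lost in 14 of 24 alternative settings. The number of members called depended on single libraries: it was 6 without JEGS day 2, 5 without JEGS day 4, 9 without day 2 of the arm without Esrrb and 5 without its day 4.

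Against the arm without Sall4 the direction was the other way, with 46 members lower in JEGS and 1 higher, where 11.9% of all genes were lower and 11.9% higher. The lower members comprised 20 of complex I, 2 of complex II, 6 of complex III, 10 of complex IV and 8 of complex V. Cox6a1 stood at 1119 to 1770.2 TPM in JEGS, and its log2 fold change was -1.26 ± 0.18 (adjusted p 0.000146, edgeR's quasi-likelihood test). Further members that fell were Ndufb6 (-1.21 ± 0.25), Ndufa3 (-1.18 ± 0.22), Cox4i1 (-0.99 ± 0.16), Cox5a (-0.91 ± 0.16), Ndufb7 (-0.83 ± 0.18), Uqcr10 (-0.78 ± 0.17), Atp5l (-0.76 ± 0.16), Sdhb (-0.73 ± 0.17) and Sdhc (-0.67 ± 0.19).

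The single member higher in JEGS than without Sall4 was Ndufa4l2 (adjusted p 0.0387), with 13 counts over the 3 JEGS libraries, a call lost in 11 of 24 alternative settings. No fold is given, since the arm without Sall4 was at or near 0 for this gene. The count of 46 was 25 without JEGS day 6, and 28 and 27 without days 4 and 6 of the arm without Sall4.

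Against the arm without Glis1, 10 members were lower in JEGS and 0 higher, where 10.0% of all genes were lower and 9.86% higher, so the share of members, 10 of 83, lay near that of all genes. At an unadjusted p under 0.05 the number higher was 1, and DESeq2 called 11 lower and 0 higher. The lower members were 5 of complex I and 5 of complex IV, with Ndufb4 (-1.30 ± 0.31), Ndufb4c (-1.06 ± 0.24), Cox5a (-0.90 ± 0.16) and Cox7a2l (-0.75 ± 0.19) among them. Leaving out JEGS day 6, or day 4 of the arm without Glis1, lowered the count to 3, and leaving out day 6 of that arm lowered it to 6.

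Against the arm without Jdp2, 1 member was lower in JEGS and 0 higher, where 2.0% of all genes were lower and 0.819% higher. The lower member was Cox6b2, at 59.3, 93.7 and 107 TPM in JEGS (in ascending order), with a log2 fold change of -2.04 ± 0.35 (adjusted p 0.00488, edgeR's quasi-likelihood test). It was lost when JEGS day 4, or day 4 of the arm without Jdp2, was left out. At an unadjusted p under 0.05 the number of members higher in JEGS was 10, and DESeq2 called 3.

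**Figure D5:**
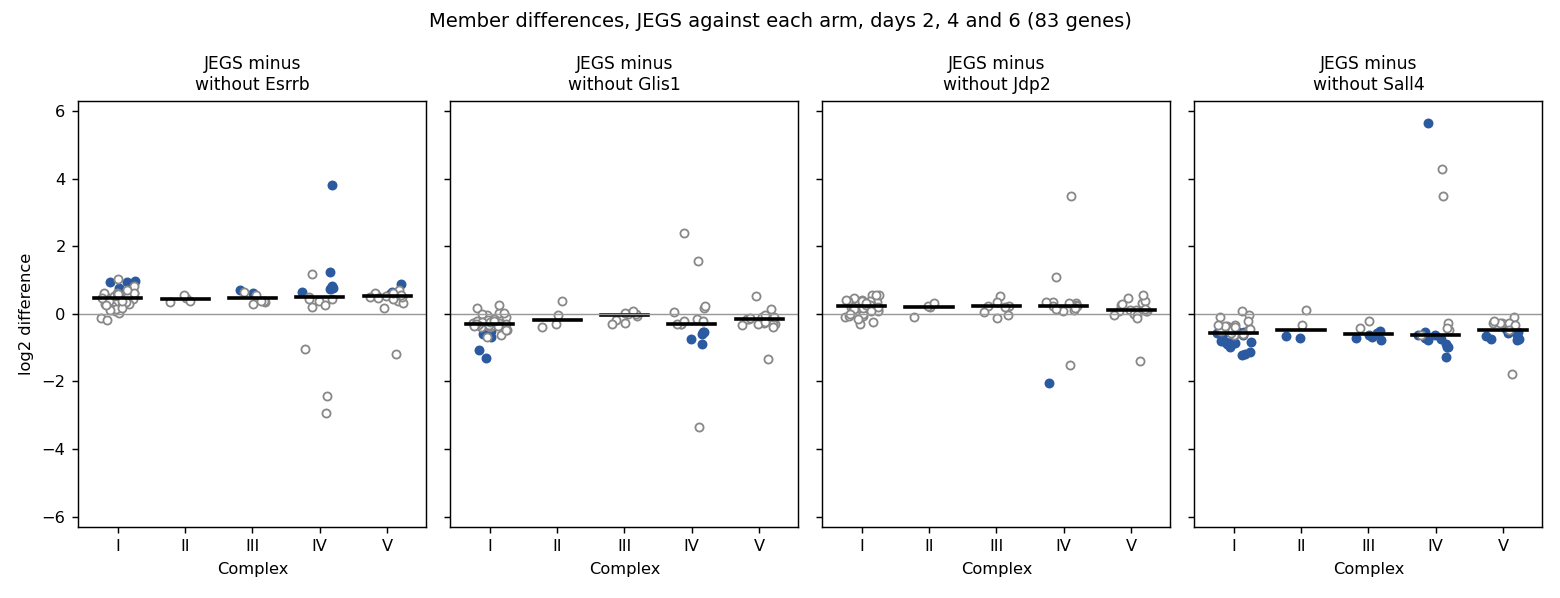
Log2 fold change (y axis) of each tested member in JEGS against each leave-out arm, on days 2, 4 and 6, by complex (x axis). Filled blue points passed an adjusted p of 0.05, open grey points did not, and black bars are medians per complex. JEGS lies above the arm without Esrrb (18 members higher) and below the arm without Sall4 (46 members lower).

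The slope over days common to the 4 leave-out arms was close to 0 for the members as a whole. With 8 members rising and 5 falling, where 15.4% of all genes rose and 15.8% fell, the median slope was 0.005 log2 units per day. Cox5a fell by 0.09 ± 0.03 per day on the log2 scale (adjusted p 0.0071) and Uqcrc1, a core protein of complex III, fell by 0.07 ± 0.02 (adjusted p 0.000406, both edgeR's quasi-likelihood test). Ndufa6, an accessory subunit of complex I, rose by 0.11 ± 0.03 per day, Cox6b2 by 0.15 ± 0.04 and Cox7a1 by 0.26 ± 0.10. These counts moved with the first and last day: without day 0, 17 members fell and 5 rose, without day 7, 2 fell and 14 rose, without day 1 or day 6, 2 fell, and without day 5, 5 rose.

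The arms differed in slope for few members. Without Esrrb, 12 members had a slope below the mean slope of the other 3 arms and 0 above it, where 3.95% of all genes were below and 2.69% above. At an unadjusted p under 0.05 the counts were 28 below and 1 above, and by DESeq2 12 and 1. The 12 were Atp5g2 (-0.63 ± 0.17 log2 units per day), Ndufa1 (-0.33 ± 0.08), Uqcrq (-0.21 ± 0.05), Uqcrb (-0.20 ± 0.04), Ndufb7 (-0.17 ± 0.05, adjusted p 0.0435 by edgeR's quasi-likelihood test), Cox6a1, Ndufa2, Ndufa12, Ndufs4, Ndufs6, Atp5j2 and Atp5l. The count rested on single days and was 1 without day 0, 4 without day 1, 6 without day 4 or day 5, 2 without day 6 and 7 without day 7.

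Without Sall4, Uqcrq (0.24 ± 0.05, adjusted p 0.00611) and Cox6a1 (0.20 ± 0.05, adjusted p 0.0344) had slopes above those of the other arms and 0 members had a slope below, where 0.739% of all genes were above and 1.1% below. At an unadjusted p under 0.05 the counts were 39 above and 1 below, and DESeq2 called 10 above and 0 below. In the arm without Glis1, Ndufa12 alone was above (0.13 ± 0.04, adjusted p 0.0278, edgeR's quasi-likelihood test) and 0 members were below, where 2.07% of all genes were above and 1.48% below. At an unadjusted p under 0.05 there were 4 above and 1 below, and DESeq2 called 2 and 2. Without Jdp2, 0 members differed in slope either way, where 0.105% of all genes were above and 0.0221% below, with 1 above and 6 below at an unadjusted p under 0.05 and 0 by DESeq2.

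Genes that work with these complexes were counted in the same fits. Without Esrrb, 14 of 17 tricarboxylic acid cycle genes were lower and 0 higher, including Idh2 (-1.45 ± 0.17) and Ogdh (-1.34 ± 0.14), enzymes of the cycle that supplies complex I with NADH. Of 16 genes for coenzyme Q synthesis and cytochrome c, 11 were lower and 1 higher, among them Coq8a (-2.53 ± 0.52), a kinase-like protein of coenzyme Q synthesis, and Cycs (-0.94 ± 0.16), somatic cytochrome c. Of 46 assembly factors, 13 were lower and 0 higher, including Cox14 (-0.92 ± 0.12), Uqcc2 (-0.82 ± 0.15) and Sco1 (-0.76 ± 0.15). Over all genes 21.9% were lower and 20.9% higher. The list thus lay near all genes in its lower share and below them in its higher share. Of the 13 mRNAs of the mitochondrial genome, 10 were lower and 0 higher, with mt-Nd2 at -0.69, mt-Nd5 at -0.63 and mt-Nd4 at -0.62.

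Without Sall4 the tricarboxylic acid cycle list had 13 of 17 genes higher and 2 lower, with Ogdh (1.20 ± 0.12) and Idh2 (0.93 ± 0.15) higher. The mitochondrial mRNAs had 10 higher and 0 lower, the coenzyme Q and cytochrome c list 7 higher and 0 lower with Coq8a at 2.20 ± 0.34, and the assembly factors 12 higher and 4 lower with Uqcc2 (1.16 ± 0.13), Cox19 (0.99 ± 0.12) and Cox14 (0.92 ± 0.10) higher. Over all genes 22.3% were higher and 19.5% lower. The assembly factors thus lay near all genes in their higher share and below them in their lower share.

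Without Glis1, 12 tricarboxylic acid cycle genes were higher and 0 lower, 8 mitochondrial mRNAs were higher and 0 lower, and Coq8a had a log2 fold change of 2.95 ± 0.34. Among all genes 20.0% were higher and 16.3% lower in that arm. Without Jdp2, 7 tricarboxylic acid cycle genes and 8 mitochondrial mRNAs were lower and 0 higher in each list, and Coq8a had a log2 fold change of -2.63 ± 0.50. There 9.13% of all genes were lower and 14.4% higher. The summed level of the mitochondrial mRNAs had a median of 71861 TPM without Esrrb, 112304 TPM without Glis1, 77322 TPM without Jdp2 and 105982 TPM without Sall4. Unlike the member sum, it already differed between arms on day 0. In the same order of arms, its log2 ratios to the mean of the other 3 arms were then -0.605, 0.876, -0.361 and 0.09. For the member sum they were -0.016, 0.03, 0.026 and -0.04. In these tables mt-Co2 runs between 0 and 795 TPM and mt-Co3 between 0.31 and 4215 TPM over the 35 libraries, with medians of 0 and 0.36 TPM, and the overlapping mt-Atp8 and mt-Atp6 cannot be cleanly divided, so this sum is a partial one.

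The same lists were counted in the JEGS comparisons, which hold 3 JEGS libraries. Against the arm without Esrrb, 9 of 13 mitochondrial mRNAs and 6 of 17 tricarboxylic acid cycle genes were higher in JEGS and 0 lower in each list. Among all genes 4.04% were higher and 2.6% lower in that comparison. Against the arm without Sall4, 6 tricarboxylic acid cycle genes were lower in JEGS and 1 higher while 11.9% of all genes were lower and 11.9% higher. Of 46 assembly factors 5 were lower and 1 higher, no more than the share of all genes. The summed mitochondrial mRNA level was 92166, 96759 and 111039 TPM in JEGS in ascending order, above the highest library of the arm without Esrrb (87479.9 TPM).

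Known regulators of mitochondrial gene expression had called members in both directions. Of 17 such genes, 2 were lower and 6 higher without Esrrb, where 21.9% and 20.9% of all genes were, and 7 were lower and 5 higher without Sall4, where 19.5% and 22.3% of all genes were. Esrra, the estrogen-related receptor best known for acting on respiratory chain genes, had a log2 fold change of -0.99 ± 0.13 without Esrrb and 0.96 ± 0.12 without Sall4. Its relative Esrrg had one of 2.93 ± 0.37 without Glis1 and -2.82 ± 0.55 without Sall4. Ssbp1, a mitochondrial DNA-binding protein, moved against the members, at 0.60 without Esrrb and -0.80 ± 0.12 without Sall4.

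The level of Esrrb itself differed between the arms that received it. It ran between 5001 and 7614 CPM without Sall4 and 4079 and 8383 CPM without Glis1, the 2 arms with the higher sums, against 541 to 2663 CPM without Jdp2 and 962 to 2608 CPM in JEGS. In JEGS it stood at 2608, 1817 and 962 CPM on days 2, 4 and 6, while the sums were 2.96%, 2.75% and 2.35% of all TPM. In the arm without Jdp2, Esrrb was at 541 CPM on day 7 and 2663 CPM on day 2, and the members made up 2.26% of TPM on day 7 and 2.63% on day 2. The orders of Esrrb and of the sums were not the same throughout. On day 0 the sums were close together while Esrrb was not, and the arms without Sall4 and without Glis1 had 6786 and 8383 CPM of Esrrb on day 5 and sums of 40032 and 29896 TPM. The part of the Esrrb level in the member values was not tested.

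Members are short genes, with a median transcript length of 699.95 bases and 63 of 84 under 1000 bases, against a median of 2322 bases over all tested genes. Short genes outside the set, 2128 in number, had median log2 fold changes of 0.06 without Esrrb, 0.05 without Glis1, -0.03 without Jdp2 and -0.01 without Sall4. The members' medians were -0.52, 0.19, -0.23 and 0.55. Among 78 members, the rank (Spearman) correlation of the difference with log2 length was 0.136 without Esrrb and -0.386 without Sall4. With log2 median TPM it was -0.142 and 0.332. The part of length and level in the differences among members was not tested. Sequencing depth also differed between arms, and with all libraries thinned to 1250000 counts 60 members were lower without Esrrb and 68 higher without Sall4.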

How the data were processed

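RNA-seq of 35 libraries was read from gene tables made with RSEM, which the authors deposited with an expected count and a TPM value for each gene. Per the submitters' processing notes, bcl2fastq, Bowtie2, RSEM and mm10 were used; versions, strand setting and annotation release are not given in the sources used here. Groups came from the sample titles. The members and gene lists were chosen with earlier results of these data known.

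Expected counts were rounded, genes with 1 CPM in at least 3 libraries were kept, and TMM scaling and edgeR 4.0.16's quasi-likelihood test (two-sided; R 4.3.3) were run over all genes with Benjamini-Hochberg adjustment at 0.05. The leave-out fit held 32 libraries with arm and day as terms (day being the number that pairs the arms), the JEGS fit 15 libraries of days 2, 4 and 6 on the same terms, and the slope fit 32 libraries with day as a number. TPM gave levels only. Gene symbols were matched for 54723 of 54752 identifiers. RSEM divides shared reads between near-identical genes and processed copies, which leaves their values uncertain, and antisense reads cannot be told apart without strand.

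Named members were, by rule, the largest called changes per complex, the marker genes Cox5a and Ndufb7, the alternative forms, and the members called for slope. Others were named after their values were seen. Library totals of 1266379 to 3608456 counts make 1 count worth 0.277 to 0.79 CPM; floors cover counting error only. Alternatives were DESeq2 1.42.0, limma 3.58.1 on log2 TPM with pseudocounts of 1 and 0.1, no filter, DESeq2 size factors, a length correction, no day term, arm slopes, split days, left-out libraries or days and, added after the data were seen, thinning to 1250000 counts. The fits were tested on simulated data.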

Additional observations from a re-analysis of the deposited data

Results flagged for a closer look

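In each arm of 8 libraries the gap of the highest or lowest library to its nearest neighbour was divided by the arm's range and flagged above 0.526. Of 155 arm and quantity pairs tested, 18 were flagged, and the pairs share libraries. The cutoff flags about 1 in 20 sets of 8 values drawn alike. The libraries of an arm were taken on different days, so that rate does not apply here. Day 0 accounts for most of the flags. In the arm without Sall4 the day 0 library stood apart as the lowest, with an all-member sum of 21247 TPM (next lowest library 32548 TPM), a complex I sum of 5212 TPM (next 7806 TPM), a complex II sum of 469.9 TPM (next 631 TPM) and a complex V sum of 7140 TPM (next 9807 TPM). The same library was lowest for Atp5d at 651 TPM, Atp5g1 at 422 TPM and Ndufa11 at 408 TPM, and highest for Ndufa4l2 at 3.26 TPM. Without Glis1, day 0 was lowest for Atp5g1 at 474 TPM, Ndufb4 at 25.96 TPM, Ndufb9 at 163 TPM and Uqcr10 at 360.1 TPM. Without Jdp2, day 0 was lowest for Cox8a at 758 TPM, and without Esrrb, day 0 was highest for Ndufa2 at 242 TPM (next 167 TPM).

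Day 7 of the arm without Jdp2 was highest for Cox4i2 at 36.9 TPM (next 16.1 TPM), Ndufa4l2 at 43.8 TPM (next 7.43 TPM) and Cox7b2 at 2.13 TPM, and day 1 of the arm without Esrrb was highest for Cox7b2 at 2.65 TPM. Each of these Cox7b2 values rests on 1 count, with the other 7 libraries at 0.

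Slopes over days differed between arms by edgeR's quasi-likelihood test of the difference. A lower slope than in the other 3 arms was found for 12 members without Esrrb, and a higher one for 1 member without Glis1 and 2 members without Sall4. Over all genes the shares were 3.95%, 2.07% and 0.739%. The member without Glis1 is 1.2% of the members, no more than the share of all genes. The count without Esrrb rested on single days, as given above.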

How the results depend on the processing

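The members' median in JEGS against the mean of the 4 arms was -0.03 (log2) and kept its sign in 21 of 24 settings, with a range of -0.12 to 0.05. Of 11793 single-gene values recomputed, 11014 kept their side of the threshold, 698 lost their call and 81 gained one. Among values of genes called in the main fits, 0 changed direction. The 11014 include genes with no call in the main fits, whose direction was not compared. The counts of 70 members lower without Esrrb and 70 higher without Sall4 moved by over 1.5 times in the fit of days 0 to 3 alone, at 29 and 28. The causes of the changes below were not tested. Each arm has 1 library a day and fits on fewer days hold fewer libraries, which limits them, and low-level members such as Cox8b and Cox4i2 are limited by depth.

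With days 0 to 3 alone, members higher without Glis1 numbered 7 (32 over all days), lower without Jdp2 0 (26), higher without Esrrb 0 (2), higher without Jdp2 1 (2) and lower without Sall4 1 (2). DESeq2 gave 1 higher without Esrrb, 1 higher and 40 lower without Jdp2, 1 lower in JEGS against the mean (0), 29 higher against the arm without Esrrb (18), 3 higher against that without Jdp2 (0) and 0 higher against that without Sall4 (1). Its slope counts were 1 higher without Esrrb (0), 2 higher (1) and 2 lower (0) without Glis1 and 10 higher without Sall4 (2). The log2 TPM fits, at either pseudocount, gave 0 higher without Esrrb, 16 lower without Jdp2, 7 higher in JEGS against the arm without Esrrb, 4 lower against that without Glis1 (10), 0 higher against that without Sall4 and 1 higher slope without Esrrb. At a pseudocount of 1 they gave 1 higher without Jdp2 and 2 lower slopes without Glis1, and at 0.1 they gave 0 higher and 1 lower slopes without Glis1.

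With no filter, 1 member was lower in JEGS against the mean, 1 lower against the arm without Esrrb, 3 fell in common slope (5), 7 had lower slopes without Esrrb (12) and 0 higher slopes without Glis1. With the length trend removed, 8 fell in common slope and 6 had higher slopes without Sall4. With day on a log2(day + 1) scale, 18 rose (8) and 3 fell in common slope, 22 had lower slopes without Esrrb, 2 higher without Glis1 and 16 higher without Sall4. With all 35 libraries in 1 fit, JEGS had 8 members higher against the arm without Esrrb and 1 higher against that without Glis1. Thinned libraries gave 1 higher without Esrrb, 1 lower in JEGS against the mean and 0 higher against the arm without Sall4. Day is the number that pairs the arms; without this replicate block, 1 member was higher without Jdp2, 11 were higher in JEGS against the arm without Esrrb and 0 higher against that without Sall4, and counts in the other comparisons stayed within 1.5 times.

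Leaving out each library or day in turn gave 60 to 74 lower and 1 to 3 higher without Esrrb, 21 to 42 higher and 3 lower without Glis1, 19 to 42 lower and 1 to 3 higher without Jdp2, and 66 to 73 higher and 1 to 2 lower without Sall4. The count of 32 higher without Glis1 was 21 without day 3. For JEGS it gave 0 to 1 lower against the mean, 5 to 19 higher against the arm without Esrrb, 0 to 1 higher and 3 to 13 lower against that without Glis1, 0 to 1 higher and 0 to 1 lower against that without Jdp2, and 0 to 1 higher and 25 to 50 lower against that without Sall4. Leaving out a day gave 5 to 14 rising and 2 to 17 falling in common slope, 1 to 11 lower slopes without Esrrb, 0 to 1 higher and 0 to 1 lower without Glis1, 0 to 2 lower without Jdp2 and 1 to 4 higher without Sall4. The mean log2 ratio of the member sum to the other 3 arms ran from -0.55 to -0.46 without Esrrb, 0.10 to 0.14 without Glis1, -0.18 to -0.14 without Jdp2 and 0.48 to 0.60 without Sall4.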
